A study of Mus musculus with 8 samples.

Results

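Regions of ChIP-Seq signal labelled as histone H3 lysine 27 trimethylation (H3K27me3) that were found in every library at the start of a gene giving little or no RNA are described here for mouse embryonic stem cells (mESCs). The 4 deposited peak lists were merged into 19460 regions, of which 5417 held a peak of every library. Of these, 2554 lay within 1 kb of the 5′ end of a named locus of the RNA count table. The 866 silent-gene regions were selected on measured values. They are those whose highest locus had a mean under 1 CPM (a count scaled to a library total of 1e+06) in the control RNA libraries, and the other 1688 are called expressed-gene regions. The silent-gene regions were 33.9% of the shared promoter regions and carried 846 different gene symbols at their highest locus.

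Mouse Oct4-GFP embryonic stem cells, which report the activity of a pluripotency gene by fluorescence, were grown without feeder cells. Control cells received saline and treated cells received 10 µM morphine for 24 h, and no other genetic or drug difference is given. The methods describe culture with leukaemia inhibitory factor and 2 inhibitors, PD0325901 and CHIR99021, and give no difference in these between control and treated cells. Each condition gave 2 H3K27me3 ChIP-Seq libraries and 2 poly(A) RNA-Seq libraries. All groups share this single reporter line, so replicate values measure the spread between cultures of that line and not between lines.

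H3K27me3 is laid down by Polycomb Repressive Complex 2 (PRC2) and marks genes that are held silent but can be switched on later. In embryonic stem cells it is known at CpG islands of developmental regulators, where the mark often spreads over the promoter and the start of the gene. CpG islands are stretches of DNA in which CpG dinucleotides are not depleted and which lie at many promoters. Silent genes without an island can be held off by other means, DNA methylation among them.

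The peak lists held 8681 to 13778 peaks, none with a score below 50, where a score of 50 stands for a MACS p-value of 1e-05 and higher scores for smaller p-values. The RNA libraries held 25081266 to 29531096 counts. All 10 pluripotency markers (Pou5f1, Nanog, Sox2 and others) reached 1 CPM in every RNA library, with a summed level of 5445 and 5393 CPM in the controls and 5617 and 5472 CPM after morphine. The 6 fibroblast markers, of which 3 reached 1 CPM in every library and Col3a1 had no count in 3 of the 4 libraries, summed to 17.9 and 18.5 CPM in the controls and to 20.7 and 18.8 CPM after morphine. The 9 germ layer markers summed to 36.9 to 41.1 CPM with overlap of the conditions. The part of these markers in the results was not tested. The labels and the methods name different suppliers of the H3K27me3 antibody. The Hox region was the study's positive control by qPCR, but no peak of any library lay within 1 kb of the 5′ end of any of the 39 Hox genes measured. The nearest was Hoxc13, 20897 bp from a peak, and the median over Hox loci was 109884 bp. The Tbp promoter, the negative control, was 33836 bp from the nearest peak. Which mark the antibody recovered was not tested here, and H3K27me3 below is the name that the labels give.

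Promoters of 6 silent-gene regions are given as examples. None of them holds fewer CpGs than the median silent-gene promoter (14), so CpG-poor promoters are not shown. Lrrc73 and Gipc3 are the 2 highest-ranked regions with an island whose RefSeq promoter lies wholly inside the region, Tcam1 and Esr2 the 2 highest-ranked without one, and Pomc and Oprd1 belong to the opioid system. Each sequence runs from 250 bases before the RefSeq start to 50 bases after it, on the strand of the gene, from GRCm38.p6, whose coordinates are those of mm10. Every CpG dinucleotide is in capitals.
Lrrc73: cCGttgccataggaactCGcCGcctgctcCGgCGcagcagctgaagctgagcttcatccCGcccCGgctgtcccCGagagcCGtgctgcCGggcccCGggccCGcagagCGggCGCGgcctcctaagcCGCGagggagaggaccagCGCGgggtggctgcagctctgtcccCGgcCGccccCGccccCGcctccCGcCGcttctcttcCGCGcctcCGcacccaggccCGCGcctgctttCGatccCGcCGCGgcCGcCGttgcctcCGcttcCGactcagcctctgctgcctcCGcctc
Gipc3: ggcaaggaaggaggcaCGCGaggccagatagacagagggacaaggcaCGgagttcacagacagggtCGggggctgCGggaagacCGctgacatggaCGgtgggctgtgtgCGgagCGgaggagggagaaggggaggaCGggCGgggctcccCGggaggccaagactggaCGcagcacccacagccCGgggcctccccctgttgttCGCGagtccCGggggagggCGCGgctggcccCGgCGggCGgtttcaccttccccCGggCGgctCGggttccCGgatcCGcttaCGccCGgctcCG
Tcam1: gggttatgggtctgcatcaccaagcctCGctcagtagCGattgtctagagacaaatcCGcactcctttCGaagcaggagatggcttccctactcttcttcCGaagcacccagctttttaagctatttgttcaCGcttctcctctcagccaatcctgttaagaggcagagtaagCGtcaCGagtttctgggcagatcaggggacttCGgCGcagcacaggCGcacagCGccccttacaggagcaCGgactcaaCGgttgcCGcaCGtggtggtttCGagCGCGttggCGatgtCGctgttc
Esr2: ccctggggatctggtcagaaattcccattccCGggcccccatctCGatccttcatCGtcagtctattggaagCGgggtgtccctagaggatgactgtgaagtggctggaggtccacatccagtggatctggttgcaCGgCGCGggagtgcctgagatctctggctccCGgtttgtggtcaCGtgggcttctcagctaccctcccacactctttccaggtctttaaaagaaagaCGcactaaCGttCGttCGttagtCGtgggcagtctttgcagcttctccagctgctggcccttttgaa
Pomc: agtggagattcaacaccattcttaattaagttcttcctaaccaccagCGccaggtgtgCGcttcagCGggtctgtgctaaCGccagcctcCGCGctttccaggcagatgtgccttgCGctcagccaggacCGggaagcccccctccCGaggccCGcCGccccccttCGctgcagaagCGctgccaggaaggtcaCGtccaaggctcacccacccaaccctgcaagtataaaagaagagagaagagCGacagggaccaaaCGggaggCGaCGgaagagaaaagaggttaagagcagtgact
Oprd1: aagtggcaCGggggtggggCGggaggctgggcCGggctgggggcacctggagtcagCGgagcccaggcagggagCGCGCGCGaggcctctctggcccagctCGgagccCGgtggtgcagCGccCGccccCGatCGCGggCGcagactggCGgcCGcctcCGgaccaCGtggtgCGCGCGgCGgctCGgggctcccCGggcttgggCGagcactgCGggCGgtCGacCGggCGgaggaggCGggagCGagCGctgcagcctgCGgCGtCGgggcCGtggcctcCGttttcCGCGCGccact
The Lrrc73 promoter (chr17:46253915-46254214, plus strand) holds 39 CpGs and the Gipc3 promoter (chr10:81343310-81343609, minus strand) holds 30. Those of Tcam1 (chr11:106276422-106276721, plus strand) and Esr2 (chr12:76177210-76177509, minus strand) hold 21 and 14. The Oprd1 promoter (chr4:132144437-132144736, minus strand) is the densest of the 6 with 43, and that of Pomc (chr12:3954695-3954994, plus strand) holds 18 although no island was called in its region. Oprd1 ranked lower by peak score than the other 5 although its promoter held the most CpGs. The 6 were chosen by score or as opioid genes, so their order does not describe the other regions.

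Silent-gene promoters were intermediate in CpG content. A RefSeq promoter of the same symbol lay within 1 kb of 513 of the 866 regions (59.2%) and of 1220 expressed-gene regions (72.3%), so these values describe only the matched regions. The median was 14 CpGs per 300 bases at silent-gene regions, 25 at expressed-gene regions and 7 over all 27025 RefSeq genes. The share with 10 or more CpGs was 63.2%, 91.3% and 43.9% in the same order. The letters CGCG, read on either strand, occurred in 55.8% of silent-gene promoters, 81.2% of expressed-gene promoters and 38.4% of all promoters. TATAAA occurred in 8.97%, 6.72% and 14.2%, GAGAG in 67.6%, 63.0% and 61.8%, and CCAAT in 29.8%, 33.0% and 37.9%. CGCG is itself made of CpGs, and the other 3 motifs hold none.

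**Figure D1:**
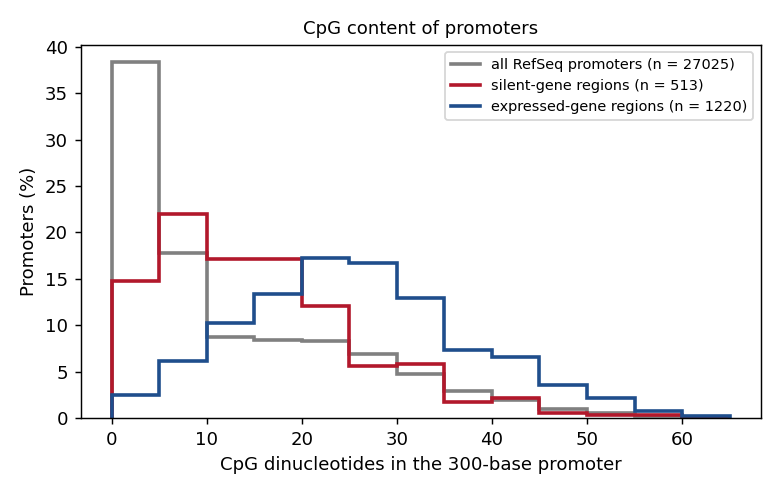
Share of promoters (y axis, percent) by number of CpG dinucleotides in the 300-base RefSeq promoter (x axis, bins of 5) for silent-gene regions, expressed-gene regions and all RefSeq genes, 1 promoter per region or gene. The silent-gene curve (median 14) lies between all genes (median 7) and expressed-gene regions (median 25).

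Over the whole region the order was the same. A CpG island, called on the GRCm38 sequence, overlapped 520 silent-gene regions (60.05%, Wilson 95% interval 56.7 to 63.3) and 1476 expressed-gene regions (87.4%, 85.8 to 88.9). The intervals cover counting error only. Away from named 5′ ends, 20.7% of 2863 shared regions overlapped an island. The median GC content was 48.1% at silent-gene regions and 49.6% at expressed-gene regions, and the median ratio of observed to expected CpG was 0.33 and 0.43. Repeat-masked sequence made up a median of 16.4% and 16.2%. Silent-gene regions were thus close to expressed-gene regions in GC and repeat content and lower in CpG.

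Gene type also differed between both sets. The highest locus was a protein-coding gene of GENCODE vM21 in 709 silent-gene regions (81.9%) and 1635 expressed-gene regions (96.9%). It carried a symbol that GENCODE does not list, many of them complementary DNA accessions, in 90 silent-gene regions (10.4%) and 28 expressed-gene regions (1.66%). Of the silent-gene regions, 9 were named for a tRNA and 10 for a microRNA, whose mature RNA a poly(A) library does not measure well. Their silence here is that of the locus in poly(A) RNA. In 64 silent-gene regions (7.39%) the region overlapped, at least in part, the span of another locus that was expressed. Of the silent-gene regions, 201 held 2 named loci and 174 held 3 or more. An island was present in 63.6% of the protein-coding silent-gene regions and in 35.6% of those outside GENCODE.

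Silent-gene regions were long. The merged regions had a median width of 5162.5 bp and ran from 1407 to 8625 bp, against a median of 3993.5 bp at expressed-gene regions. The median base pairs covered by peaks at a silent-gene region were 4359.5 and 4613.5 bp in the 2 control libraries and 4300 and 4526.5 bp in the 2 morphine libraries. At expressed-gene regions the same values were 3083, 3191.5, 3398.5 and 3467 bp. Silent-gene regions were the wider in 4 of 4 libraries, by 1164.9 bp on average (SD 230 bp, n = 4). The two-sided exact sign-flip permutation test gave the smallest p that 4 libraries allow, which is above 0.05.

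The peaks at silent genes scored lower although they were wider. The highest score of a region was ranked as a percentile among all peaks of its own library. The median percentile at silent-gene regions was 74.1 and 78.6 in the controls and 69.5 and 77.0 after morphine. At expressed-gene regions it was 80.3, 84.4, 75.9 and 82.5. The difference was -5.96 percentile points on average and was negative in 4 of 4 libraries (SD 0.374, n = 4), again with the smallest p that the exact test allows. Within the 866 regions the mean percentile of a region ran from 42.1 at the 10th centile to 92.9 at the 90th, and the mean base pairs covered from 2510 to 6461 bp.

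Among the silent-gene regions, those with an island were the wider and the higher scoring. The 520 regions with an island covered a median of 4958.5, 5151.5, 4901 and 5036.5 bp in control 1, control 2, morphine 1 and morphine 2, and the 346 without one covered 3560.5, 3893.5, 3538.5 and 3830.5 bp. Their median score percentiles were 79.4, 82.1, 76.0 and 80.7 against 65.6, 72.3, 59.6 and 72.6. The highest locus had a count in RNA more often at regions with an island (83.7% to 84.8% of regions per library) than without one (61.6% to 64.2%). A wider region holds more sequence in which an island can be called, and the part of width in these differences was not tested.

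**Figure D2:**
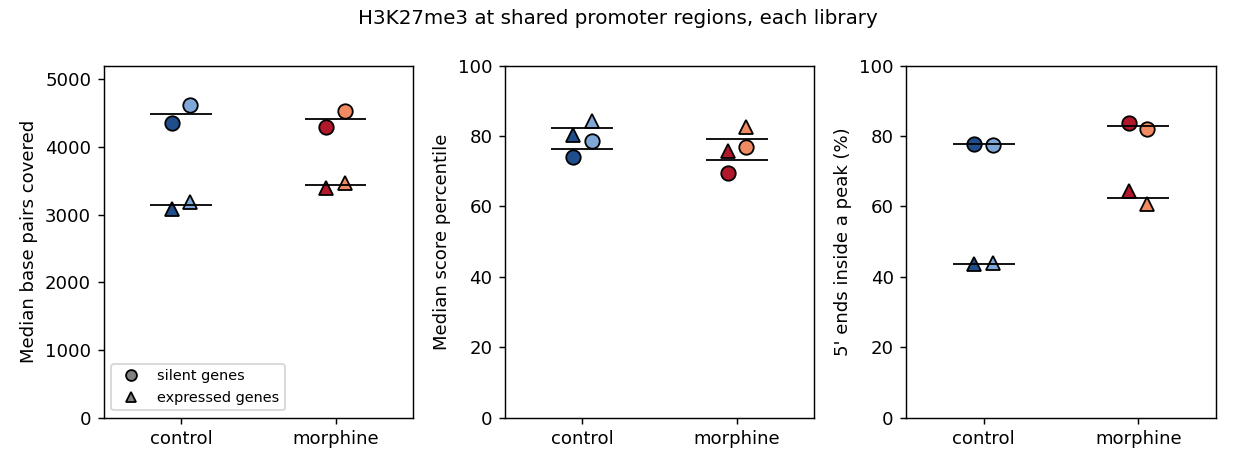
Median base pairs covered per region (left), median score percentile (middle) and percent of 5′ ends inside a peak (right) in each library, with circles for the 866 silent-gene regions, triangles for the 1688 expressed-gene regions and lines at the mean of the 2 libraries of a condition. Circles lie above triangles for width and 5′ end coverage and below them for score in each of the 4 libraries.

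The highest-scoring silent-gene regions were narrow. Asmt, which encodes the last enzyme of melatonin synthesis, had the highest mean percentile (99.8). Its region covered 1324 and 1307 bp in control cells and 1407 and 1322 bp in treated cells, and the locus had no RNA count in any of the 4 libraries. Next came Tc2n (99.5), Lrrc73 (99.5), Gipc3 (99.3) and F830208F22Rik (98.9). Car8, a member of the carbonic anhydrase family, had scores of 341 and 476 in the controls and 303 and 461 after morphine, and covered 3180, 3115, 3118 and 2988 bp. Rasd1, a Ras-like GTPase, had scores of 394, 348, 326 and 474 in the same order. AK037562, Rnf182 and 4930444P10Rik complete the 10 regions with the highest mean percentile, and an island overlapped each of the 10.

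The 5 regions with the most base pairs covered, averaged over the libraries, had mean percentiles from 27.6 to 62.1. Chrdl2, a secreted antagonist of bone morphogenetic proteins, covered 7947 and 8176 bp in control cells and 8048 and 7527 bp in treated cells, with a mean percentile of 53.3. Tifa, an adaptor of the NF-κB pathway, averaged 7823 bp. Cga encodes the common alpha subunit of the pituitary glycoprotein hormones and averaged 7814.5 bp. Kcnc1, a voltage-gated potassium channel, covered 7739, 7710, 7236 and 7530 bp at a mean percentile of 62.1, the highest of these 5. Mixl1, a homeobox gene of the primitive streak, covered 7474, 7910, 7173 and 7619 bp, and its mean percentile was 27.6.

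The lowest mean percentiles belonged to AK131873 (13.5), the death receptor gene Fas (16.5), Fgf14 (17.1), Stk33 (19.3) and AK144297 (20.02). Fgf14, a fibroblast growth factor homologue that acts on sodium channels, covered 7037 and 7235 bp in control cells and 7397 and 7114 bp in treated cells although its scores were 58.1, 54.5, 70.8 and 52.7. Of these 5 regions AK131873 and AK144297 were narrow, with 1634.5 and 1776.5 bp covered on average, under the 10th centile of silent-gene regions (2510 bp), and the other three averaged 4457 to 7195.75 bp.

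At the 5′ end itself silent-gene and expressed-gene regions had different profiles. The 5′ end of the highest locus was inside a peak at 77.8% and 77.6% of silent-gene regions in the controls and at 43.5% and 44.0% of expressed-gene regions. It lay inside the merged region at 87.8% of silent-gene and 70.0% of expressed-gene regions. Among loci of equal RNA level, the 5′ end nearest the midpoint of the region was used. The part of this choice and of region width in the contrast was not tested. Coverage of silent-gene regions rose into the gene and was highest at 1000 and 1100 bp from the 5′ end in the controls. The value at the 5′ end was 0.907 and 0.903 of that maximum. At expressed-gene regions it was only 0.6 and 0.609 of the maximum, which lay 1400 and 1200 bp into the gene.

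**Figure D3:**
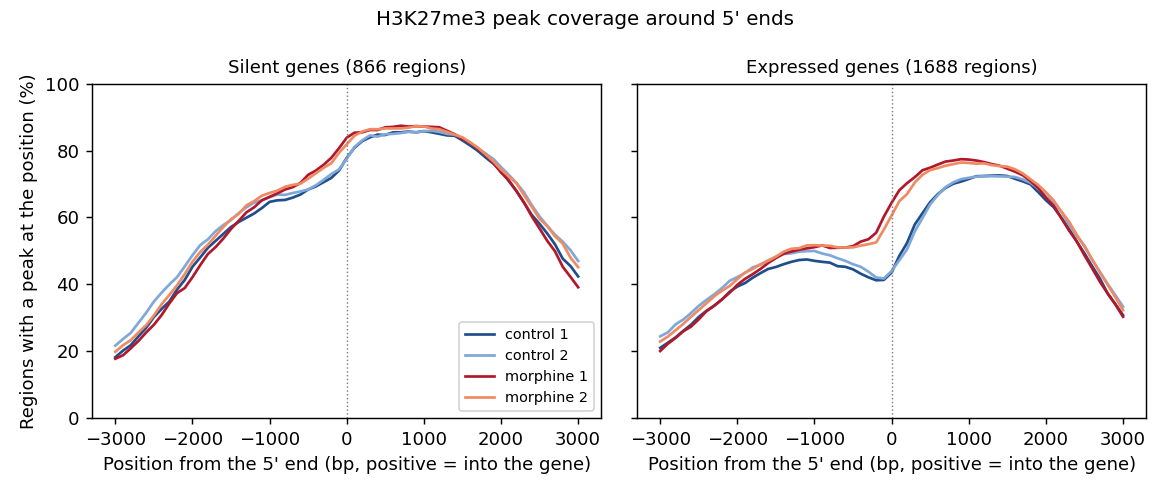
Percent of regions with a peak at each position from 3000 bp before to 3000 bp after the 5′ end of the highest locus (x axis, bp, positive into the gene), for silent-gene regions (left) and expressed-gene regions (right), 1 line per library. At silent genes the control lines reach 77.8% and 77.6% at the 5′ end without a dip, and at expressed genes they dip to 41.2% and 41.8% at 200 and 100 bp before the 5′ end and read 43.5% and 44.0% at it, where the morphine lines read 64.4% and 60.6%.

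After morphine the 5′ end was covered at 83.8% and 81.9% of silent-gene regions. This was 5.14 percentage points above the controls (SD of the difference 0.988, n = 2 against 2, exact permutation p = 0.33, the smallest that 2 libraries against 2 allow), with both morphine libraries above both controls. With the expression cut at 0.5 CPM the difference was 2.72 points. At expressed-gene regions the 5′ end was covered at 64.4% and 60.6%, a difference of 18.7 points. The difference between conditions was smaller at silent-gene regions by 13.6 points (exact permutation p = 0.33), and the libraries did not overlap. Over regions that hold the 5′ end the silent-gene minus expressed-gene value was -20.8 points. Silent-gene regions had the higher share in the controls, and the part of this starting level in the smaller difference was not tested. Of the 159 silent-gene regions whose 5′ end was in neither control library, 23 (14.5%) had it in both morphine libraries, against 186 of 864 expressed-gene regions (21.5%). Over all 1023 shared promoter regions whose 5′ end was in neither control library the share was 20.4%. As a share of every region of a set, the change was found at 2.66% of silent-gene regions and at 8.18% of all shared promoter regions.

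The 23 regions included Kcnq3 (a potassium channel), Cldn5 (a tight junction protein of endothelium), Hdac9 (a histone deacetylase), Etv2 (a transcription factor of blood and vessel progenitors) and L3mbtl1, named after their values were seen. An island overlapped 18 of the 23. The reverse, a 5′ end in both controls and neither morphine library, was found at 4 silent-gene regions (0.462%) and 2 expressed-gene regions (0.118%), and at 0.235% of all shared promoter regions. The 4 were Pcdhb9, Cfap58, KY467834 and Magi2. In all 4 libraries the 5′ end was inside a peak at 622 silent-gene regions (71.8%), and at 104 it was in none.

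Total width at silent genes differed between conditions by less than the spread of replicates. The median base pairs covered differed by -73.25 bp (SD of the difference 170, n = 2 against 2, exact permutation p = 0.667). The median percentile differed by -3.14 points (SD 4.37, exact permutation p = 0.667), and libraries of both conditions overlapped for both measures. Percentiles are ranks in lists of unequal length, and with equal numbers of the strongest peaks the difference was -0.305 points. Expressed-gene regions were 295.5 bp wider after morphine (SD 64.2), without overlap of the libraries (exact permutation p = 0.33).

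Single regions differed in covered bases about as often as shared regions in general. Both morphine libraries lay above both controls at 134 silent-gene regions (15.5%), where this held for 19.1% of all 5417 shared regions. Both lay below at 157 (18.1%), against 16.7% of all shared regions. Expressed-gene regions were above in 31.8% and below in 11.97%. The counts at silent-gene regions are thus close to the background in both directions.

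Among the regions without overlap of the conditions, the 5 with the largest difference towards morphine were Boll, Tmem25, Srsf12, Etv2 and Sorbs2. Boll, which is needed in male germ cells, covered 4143 and 4023 bp in control cells and 7526 and 7090 bp in treated cells. At Tmem25 the values were 2671, 2487, 5471 and 4870 bp, and at Etv2 they were 3106, 2989, 5662 and 5411 bp. Srsf12, a splicing factor, had 2612 and 2175 bp and then 4002 and 5925 bp, and Sorbs2 had 2886 and 3285 bp and then 5648 and 4989 bp. At Tmem25, Srsf12, Etv2 and Sorbs2 the 5′ end was inside a peak of both morphine libraries and of neither control.

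The 5 with the largest difference towards the controls were Hivep3, Scube1, Tslp, AK161769 and Ptgfr. Scube1, a secreted protein of vessels and platelets, covered 6593 and 6416 bp in control cells and 4264 and 3947 bp in treated cells. Its score percentile was higher after morphine (92.2 and 94.5) than in the controls (53.3 and 69.3). Ptgfr, the prostaglandin F receptor, covered 5683, 6532, 4303 and 3621 bp. In Hivep3 the controls were 4324 and 7279 bp, and in AK161769 they were 3638 and 7462 bp, so in both the size of the difference rests on control replicate 2. Tslp, a cytokine of epithelium, covered 5410 and 6095 bp and then 1886 and 4908 bp.

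RNA from these loci was also low after morphine. The median level of the highest locus was 0.158 CPM in the controls, which chose the regions, and 0.166 CPM after morphine. Under 1 CPM were 93.9% of the regions in morphine replicate 1 and 95.4% in replicate 2. In the single control libraries, whose mean was the criterion, these shares were 98.7% and 97.9%. A level of 1 CPM in both morphine libraries was reached by 25 regions, and 2 CPM in both by 0. In the other direction 9 expressed-gene regions were under 1 CPM in both morphine libraries. At 126 regions no library had a count.

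Loci at silent-gene regions gave some RNA more often than silent loci without a peak. A count was present at the highest locus of 75.1% to 76.3% of silent-gene regions per library. Where a region had a single named locus, which removes the choice among several, the share was 69.2% to 70.7%. Of the silent named loci with no peak of any library within 1 kb it was 31.3% to 32.5%. Expressed loci had a shared region within 1 kb more often (13.8% of 14332) than silent loci (7.08% of 26514).

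**Figure D4:**
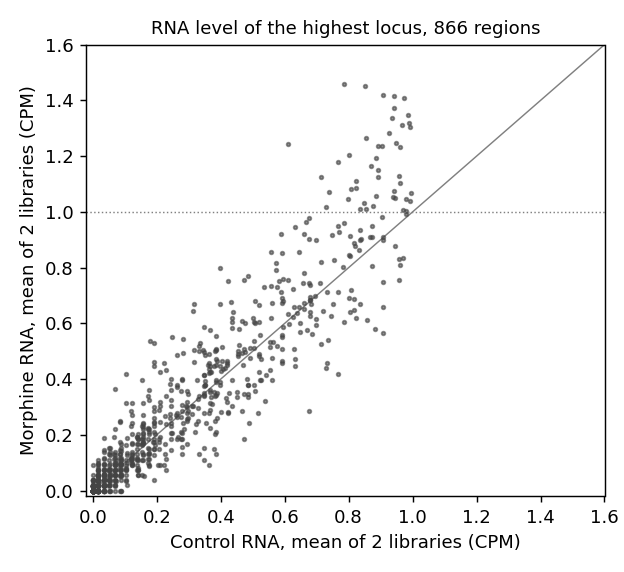
Mean RNA level of the highest locus of each of the 866 silent-gene regions in control (x axis, CPM) and morphine libraries (y axis, CPM), 2 libraries each, 1 point per region, with the diagonal and a dotted line at 1 CPM. Points end at 1 CPM on the x axis because the control mean chose the regions, and the highest morphine mean is 1.46 CPM.

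The RNA contrast cannot be read as a test of these loci, because the control level that it uses also chose them. A control mean under 1 CPM leaves little room for a lower level after morphine, and some loci could pass the count filter only through the morphine libraries. The counts are therefore a description. Of 1610 named loci within 1 kb of these regions, 484 passed the count filter, and 0 were called higher and 0 lower by edgeR's quasi-likelihood test at FDR 0.05. Over all 20350 loci tested, 0.614% were called higher and 0.904% lower. At an unadjusted p under 0.05 there were 18 higher and 11 lower among the 484, together 5.99%. Over all loci the matching share was 20.5%, made up of 9.7% higher and 10.8% lower. The edgeR exact test called 1 (Kazald1), with 3.88% of all loci called, and the likelihood ratio test 3 (4933417D19Rik, Kazald1 and Rrad), with 4.13% of all loci called. With no count filter 2 were called (Rrad and Snai3), with 5.44% of all loci called, and without control RNA replicate 2 the quasi-likelihood test called 1 (Kazald1), with 7.67% of all loci called. DESeq2 gave an adjusted p to 0 of the 484 after its own filter on low counts, so it has no count here, and called 606 of the 7330 loci with one (8.27%). The median standard error of the log2 fold change was 0.39 at these loci and 0.12 over all loci, so only larger changes could be called. Of all 4266 tested loci under 1 CPM in the controls, 0.164% were called.

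Among the 5 regions with the highest morphine mean were those at Snai3, AK036547, Micall2 and Copz2. Snai3, a zinc finger factor of the Snail family, read 0.827 and 0.745 CPM in the controls and 1.28 and 1.64 CPM after morphine. Micall2, Copz2 and AK036547 had morphine means of 1.42, 1.41 and 1.45 CPM. Their adjusted p by edgeR's quasi-likelihood test was 0.11 (Snai3), 0.144 (AK036547), 0.248 (Micall2) and 0.349 (Copz2), so none of these was called. Just under the threshold of 1 CPM were AK014974 (0.994), the growth hormone receptor gene Ghr (0.992) and Tulp1 (0.991), and just at or over it were 1810010H24Rik (1.002), Plbd1 (1.01) and Grb14 (1.02).

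Genes of development, for which H3K27me3 is best known, were taken from 10 lists of regulators and ligands. Of their 276 genes under 1 CPM, 14 (5.07%) had a silent-gene region, and over all 17899 symbols under 1 CPM the share with a shared region was 6.48%, so the lists together were near the background. None of 32 silent Hox genes, 9 T-box, 23 forkhead, 16 Wnt and 19 bone morphogenetic protein, TGF-β and Hedgehog ligand genes had a shared region. Of 98 other silent homeobox genes, 2 were present. They were Mixl1 and Dbx2, a factor of the ventral neural tube, which covered 4518, 4805, 4228 and 6139 bp. Of 8 silent Pax genes Pax4, a factor of pancreatic endocrine cells, was present, and of 11 silent Gata, Sox and Zic genes Sox18, a factor of vessels. Sox18 covered 6327 and 6367 bp in control cells and 6583 and 6115 bp in treated cells, at a mean percentile of 94.0.

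Basic helix-loop-helix factors were represented by 6 of 45 silent genes (13.3%), which were Hes2, Nhlh1, Atoh7, Hey1, Mesp1 and Sim2. Hes2, of the Hairy and Enhancer of split family, had percentiles of 97.7 and 98.1 in the controls and 96.9 and 98.4 after morphine. Nhlh1, a factor of young neurons, had 95.8, 95.7, 91.2 and 96.5, although its 5′ end was inside no peak of any library. Atoh7, which is needed for retinal ganglion cells, had no RNA count in any library and covered 5698, 5335, 5288 and 5482 bp.

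Fibroblast growth factor genes made up 4 of 15 (26.7%). Fgf15, a signal of gut and neural tube, had percentiles of 91.4, 96.6, 97.5 and 97.4 and read 0.539 and 0.643 CPM in the controls and 0.678 and 0.428 CPM after morphine. Fgf3, its neighbour on chromosome 7, covered 7346, 7322, 7497 and 7420 bp. Fgf21 shared its region with Fut1, which was the highest locus there. The fourth was Fgf14.

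Neurotransmitter receptors made up 7 of 47 silent genes (14.9%), among them Htr1f and Htr5a (serotonin), Drd4 (dopamine), Adra2a (noradrenaline) and the glutamate receptors Grin2b and Gria4. Htr1f covered 5396, 5915, 4734 and 5267 bp at a mean percentile of 94.5, and a single RNA count was found in all 4 libraries together. Grin2b, a subunit of the NMDA receptor, had percentiles of 94.7, 97.5, 86.4 and 93.5. Drd4 covered 7169, 7731, 7257 and 7431 bp. Potassium and calcium channels made up 8 of 40 (20%), and a ninth channel gene was silent at the locus with the region but reached 1 CPM at another. They were Kcnc1, Kcnf1, Kcng2, Kcng3, Kcnj6, Kcnq3, Kcnq5, Cacna1b and Cacna1h. Cacna1b, the N-type calcium channel, was even across libraries at 4151, 4212, 4144 and 4091 bp.

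Of the opioid system, 2 of 6 silent genes were present. Pomc encodes the precursor of beta-endorphin and of the melanocortins. Its region covered 2443 and 2975 bp in control cells and 2265 and 3829 bp in treated cells, and its locus read 0.755, 0.779, 1.12 and 0.784 CPM. Oprd1, the delta opioid receptor, covered 5525, 5169, 4984 and 5368 bp and read 0.324, 0.135, 0.0797 and 0.0713 CPM, which is 9, 4, 2 and 2 counts. The 5′ end of both was inside a peak of all 4 libraries, and in RNA Pomc was not called (log2 fold change 0.28, SE 0.31, edgeR adjusted p = 0.665) and Oprd1 did not pass the count filter. Of 23 silent genes on a list of genes of other tissues, 0 had a silent-gene region.

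**Figure D5:**
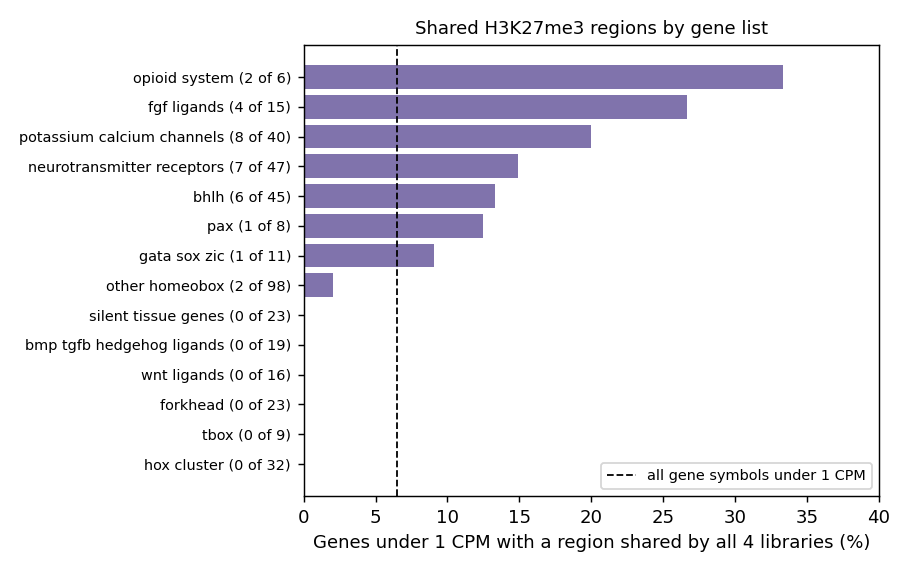
Percent of the genes of each list that were under 1 CPM in the controls and had a region shared by all 4 libraries within 1 kb (bars), with the counts in the row labels and the value for all gene symbols under 1 CPM as a dashed line at 6.48%, for lists with 5 or more silent genes. Bars are 0 for Hox, T-box, forkhead, Wnt, bone morphogenetic protein and silent tissue genes, and the small lists (opioid system, Pax) rest on 1 or 2 genes.

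The families below, among them genes of peptide signalling, were drawn up after the members were seen, so their shares are descriptions of that choice. Over all symbols under 1 CPM, 6.48% had a shared region, and no difference from that share was tested. Among 23 silent neuropeptide genes 11 were present, which were Cck, Crh, Gal, Kiss1, Nmu, Npw, Pomc, Spx, Sst, Ucn and Vgf. Among 47 silent neuropeptide receptor genes 13 were present. Crh, the hormone that starts the stress response, had a mean percentile of 94.3 and 3473.5 bp covered, and no RNA count in the controls. Kiss1, which encodes kisspeptin of the reproductive axis, had a mean percentile of 94.4. Sst, which encodes somatostatin, averaged 5204 bp, and its receptor gene Sstr2 averaged 5852 bp. Galanin was likewise present with a receptor, with 5554 bp at Gal and 7118 bp at Galr2.

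Of 8 silent genes of the melanocortin system, 5 were present, the precursor Pomc, the receptors Mc3r, Mc4r and Mc5r and the receptor accessory gene Mrap2. The families overlap, since Pomc was also counted among the neuropeptides and the receptors Mc3r, Mc4r and Mc5r among the neuropeptide receptors. Mc3r and Mc4r had no RNA count in any library, and Mc5r read 0.748 CPM in the controls and 0.917 CPM after morphine. The endothelin genes Edn1 and Edn3 and the receptor gene Ednrb were 3 of 5 silent genes of that system, at mean percentiles of 89.6, 79.4 and 88.1. Of 14 silent Trp cation channel genes 7 were present, with mean percentiles from 41.5 (Trpm5) to 92.7 (Trpc6). Of 17 silent claudins 5 were present, with mean percentiles from 39.9 (Cldn1) to 98.2 (Cldn5). Sensory receptors of the nose were nearly absent, with 7 of 1117 silent olfactory receptor genes (0.627%) and 0 of 323 silent vomeronasal receptor genes.

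The regions lay on every autosome and on the X chromosome. Chromosome 7 held 75 and chromosome 11 held 71, which is 8.66% and 8.2% of the regions. Of the silent named loci, 8.95% were on chromosome 7 and 5.13% on chromosome 11. Chromosome 8 held 23 (2.66% of regions, 3.79% of silent loci) and chromosome X held 14 (1.62% and 3.88%), in both cases a smaller share of the regions than of the silent loci. Expressed-gene regions had 8.29% on chromosome 11 and 1.36% on chromosome X, close to the silent-gene regions. They had 6.75% on chromosome 7 and 6.28% on chromosome 8.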

How the data were processed

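H3K27me3 ChIP-Seq and RNA-Seq were compared in control and morphine-treated mESCs, with 2 libraries per group grouped by the labels. The authors aligned ChIP reads to mm10 with Bowtie2 (version 2.3.5.1) and called peaks with MACS in each library at p = 1e-05. The deposited score is -10 times the log10 of the p-value, so it depends on the read depth, which the lists do not give, and it was ranked only within a library. The deposited counts are raw reads per StringTie locus from HISAT2 (2.1.0) and featureCounts (1.6.4). Whether counting used strand is not given in the sources used here, so overlapping and antisense loci are uncertain.

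Peaks were merged at an overlap of 1 bp or more. CPM is a count scaled to a column total of 1e+06. Counts were filtered with filterByExpr, TMM-normalized and tested with edgeR 4.0.16 in R 4.3.3, with DESeq2 1.42.0 as an alternative. Exact permutation tests over libraries were two-sided. CpG islands were called on the repeat-masked GRCm38 sequence and required 200 bp, GC above 50% and an observed to expected ratio above 0.6. Scripts were tested on simulated data. Gene types were matched to GENCODE vM21 by symbol. Members, gene lists and tests were chosen with earlier results of these data known. Genes named are the 10 highest and the 5 lowest regions by score percentile, the 5 with the most base pairs covered and up to 3 per list. They also include those next to the threshold, the 5 with most RNA after morphine and the 5 largest non-overlapping changes each way. Further genes were named after their values were seen where the text says so. The alternatives were a peak score of at least 100, equal numbers of peaks, other distances and expression cuts, other tests and scalings, and leaving out each library. Some items that these rules select are not reported here.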

Additional observations from a re-analysis of the deposited data

How the results depend on the processing

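Silent-gene regions were the wider and the lower scoring under every alternative run, and without each library the differences ran from 1134.3 to 1179.7 bp and from -6.85 to -5.97 percentile points. Their number fell to 381 with a peak score of at least 100 and was 857 to 980 without each library. The change in 5′ end coverage with morphine kept its sign under every alternative (4.18 to 6.3 points without each library, 2.72 at a cut of 0.5 CPM), as did its difference from expressed-gene regions (-14.2 to -12.3 without each library, -20.8 with the 5′ end inside the region). The width change of -73.25 bp turned to 79 bp without control replicate 2 and to 62.5 bp without morphine replicate 1 (range -193.75 to 79) and was -146.75 bp at a cut of 0.5 CPM, and the percentile change turned to 0.255 without morphine replicate 1 (range -6.99 to 0.255) and was -0.305 with equal numbers of peaks. The share with an island was 71.7% with a peak score of at least 100, 63.6% with the 5′ end inside the region, 56.5% within 3 kb, 54.7% and 64.7% at expression cuts of 0.5 and 2 CPM, and 56.3% to 60.5% without each library. The mean share under 1 CPM after morphine, 94.6%, was 92.8% with a score of at least 100, 100% and 78.4% at cuts of 0.5 and 2 CPM, and 94.0% to 95.1% without each library. The number of member loci called was 1 with the edgeR exact test (790 of all 20350 loci), 3 with the likelihood ratio test (840), 2 with no count filter (Rrad and Snai3, beside 1657 of all 30482), and 0 to 1 without each RNA library (Kazald1 without control RNA replicate 2, beside 1619 of 21116). DESeq2 gave no adjusted p at any member locus and so no value. The causes were not tested. With the replicate number as a block, 0 member loci were called, while the count over all loci rose from 309 to 1128. The mean paired changes (-73.25 bp, -3.14 and 5.14 points) equal the unpaired ones by arithmetic, so pairing is no check of these values. No label ties same-numbered libraries to one batch, and the deviations of same-numbered RNA libraries correlated at 0.026. The peak lists carry no read depth, so the enrichment under a peak could not be compared between libraries, and 2 libraries against 2 cannot give a p under 0.33.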
